A study of Mus musculus with 9 samples.

Results

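Ear skin of C57BL/6 mice was profiled for the messenger RNA of 9 genes that make, modify and move the ceramides of the skin barrier: Sptlc1, Sptlc2, Cers3, Cers4, Ugcg, Abca12, Smpd1, Alox12b and Aloxe3. The genes were listed by symbol, and every probe set that the array annotation gave to one of these symbols was taken, which was 20 of 45037 probe sets and 9 of 18193 genes. None of the 20 probe sets was shared with another gene, and all 20 passed the filter on low values. Skin was sampled after 6 h in 3 groups of 3 arrays each: DNFB, a chemical allergen, on the right ear; BAC, a skin irritant, on the right ear; and the vehicle, acetone and olive oil, on the left ear, so treatment cannot be told apart from the side of the ear. The sources used here give no dose and neither the age nor the sex of the mice. Whether replicates came from separate mice is not stated, so p-values cover only the spread among these samples, which may be of technical origin. Nor is it stated whether the vehicle ears belonged to the treated mice, in which case treated and vehicle arrays would not be independent as the tests assume. Because whole skin was measured, fewer cells of a type and less RNA per cell cannot be told apart.

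The outer layer of the skin holds water because its dead cells are embedded in sheets of ceramides, cholesterol and fatty acids. Living keratinocytes build ceramide from serine and a fatty acyl chain, cap it with glucose or phosphocholine, and load it into secretory vesicles called lamellar bodies. After secretion the cap is removed, and lipoxygenases oxidise a special class of ceramides so that these can be bound to the protein shell of the dead cell. Inherited loss of several of these genes causes scaling skin disease, or ichthyosis, in humans.

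After DNFB, 6 of the 9 genes fell relative to vehicle: Alox12b, Abca12, Cers4, Smpd1, Aloxe3 and Sptlc1, by 1.31, 0.84, 0.70, 0.62, 0.55 and 0.37 on the log2 scale. After BAC, Alox12b, Smpd1, Aloxe3 and Sptlc1 fell by 0.55, 0.54, 0.46 and 0.37 on the log2 scale, and Ugcg, which makes glucosylceramide, rose by 0.49. Alox12b, the lipoxygenase that starts acylceramide oxidation, was the 1 gene of the 9 called between DNFB and BAC, with a log2 difference of -0.76. Ugcg was not called there by its brightest probe set. Its dimmer probe sets 1421268_at and 1421269_at were called in a fit over probe sets, at -1.04 and -0.80 (limma adjusted p = 0.0032 and 0.043). A gene was called when its limma adjusted p, over all 14122 tested genes, was below 0.05, and each gene was represented by its brightest probe set. By that rule 7.08% of all tested genes were lower and 6.76% higher after DNFB, against 6 and 0 of the 9 genes. For BAC, 7.64% of tested genes were lower and 6.59% higher, against 4 and 1 of the 9. Between DNFB and BAC, 3.66% of tested genes were lower with DNFB and 3.14% higher, against 1 and 0 of the 9. The 9 genes were chosen with earlier results of these data known, so setting them beside these shares is no independent test. At an unadjusted limma p under 0.05, 7 of the 9 were lower and 0 higher after DNFB, and 4 were lower and 0 higher in DNFB against BAC. The shares above hold for adjusted p only, so these unadjusted counts have no background beside them. The median log2 difference of the 9 genes was -0.57 after DNFB, -0.37 after BAC and -0.15 between DNFB and BAC, against 0.0022, -0.031 and 0.029 over all tested genes. The comparisons with vehicle share its 3 arrays.

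Most of these calls were close to the threshold. When limma's variance model had no intensity trend, only Alox12b passed after DNFB and none of the 9 passed after BAC or between DNFB and BAC. In that fit 6, 5 and 3 of the 9 had an unadjusted limma p under 0.05. Over all 14122 tested genes it called 1202, 1387 and 402, against 1955, 2009 and 961 in the main fit. DNFB replicate 2 had the highest ratio of 3′ to 5′ Gapdh signal, a measure of RNA integrity, at 1.36, against 0.841 and 0.943 in the other DNFB arrays, 0.917 to 0.932 in BAC arrays and 0.856 to 0.880 in vehicle arrays. The same ratio for actin was 1.09, 1.28 and 1.23 in DNFB arrays and 1.18 to 1.22 in BAC arrays, against 1.05 to 1.10 in vehicle arrays. By actin all 3 BAC arrays and DNFB replicates 2 and 3 lay above the vehicle arrays, so this measure moved with treatment, and its part in the differences was not tested. Without DNFB replicate 2, Alox12b, Smpd1 and Cers4 were still called after DNFB, so 3 of the 9 genes passed in place of 6. None passed in DNFB against BAC, where 3 had an unadjusted limma p under 0.05. Over all tested genes that fit called 1439 of 13907 after DNFB and 602 in DNFB against BAC. Without BAC replicate 2 none of the 9 passed in DNFB against BAC either, with 2 under 0.05 unadjusted, and without DNFB replicate 3 the count was 2, Alox12b and Abca12. Over all tested genes 515 and 565 were called there. Leaving out vehicle replicate 1 or vehicle replicate 3 also gave 3 called genes of the 9 after DNFB, with 1280 and 1254 called over all tested genes. For BAC the count of 5 fell to 1 without BAC replicate 3, vehicle replicate 1 or vehicle replicate 3, and to 2 without BAC replicate 1, BAC replicate 2 or vehicle replicate 2. Over all tested genes, calls after BAC fell from 2009 to between 1231 and 1755 when 1 of these arrays was left out.

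**Figure D1:**
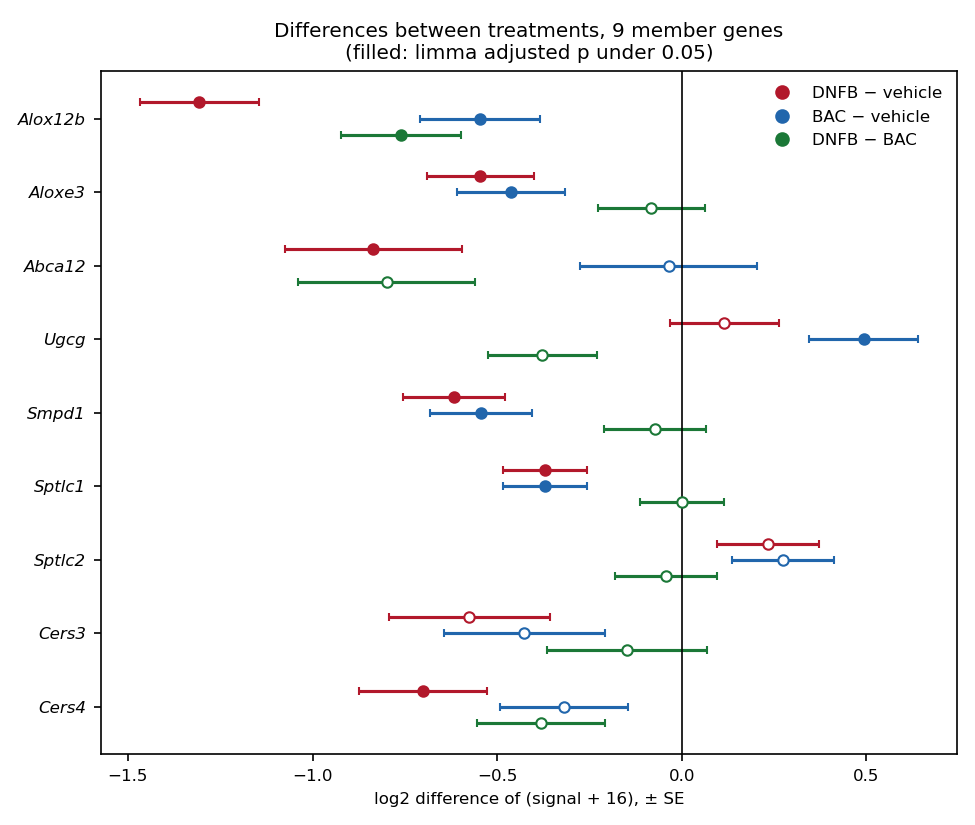
Log2 differences of (signal + 16) for the 9 genes, with the SE from limma as error bars, for DNFB minus vehicle (red), BAC minus vehicle (blue) and DNFB minus BAC (green); filled points have an adjusted p under 0.05. Alox12b has the lowest point, at -1.31 for DNFB minus vehicle, and Ugcg has the one filled point right of 0, at 0.49 for BAC minus vehicle.

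The stretches around the start sites of Alox12b, Abca12 and Ugcg are shown because these genes moved in different patterns: lower after both compounds, lower after DNFB, and higher after BAC. Each runs from 250 bases before to 50 bases after the start in RefSeq for GRCm38.p6. The promoter sequences used here held 8 of the 9 genes and lacked Aloxe3. Alox12b lies at chr11:69156822-69157121 on the + strand, Abca12 at chr1:71414861-71415160 on the - strand and Ugcg at chr4:59189300-59189599 on the + strand. Capitals mark every match to 9 searched motifs, on either strand.
Alox12b: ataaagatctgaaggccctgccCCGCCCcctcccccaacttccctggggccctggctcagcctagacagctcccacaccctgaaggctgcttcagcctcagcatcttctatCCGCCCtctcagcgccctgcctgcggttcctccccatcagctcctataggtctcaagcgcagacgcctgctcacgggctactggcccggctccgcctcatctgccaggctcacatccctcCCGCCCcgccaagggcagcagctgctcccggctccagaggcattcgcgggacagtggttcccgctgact
Abca12: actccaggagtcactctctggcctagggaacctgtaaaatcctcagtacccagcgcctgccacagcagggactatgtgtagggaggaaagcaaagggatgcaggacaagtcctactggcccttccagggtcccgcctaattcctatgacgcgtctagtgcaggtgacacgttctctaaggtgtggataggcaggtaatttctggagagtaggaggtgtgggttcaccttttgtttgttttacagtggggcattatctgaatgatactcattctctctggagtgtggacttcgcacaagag
Ugcg: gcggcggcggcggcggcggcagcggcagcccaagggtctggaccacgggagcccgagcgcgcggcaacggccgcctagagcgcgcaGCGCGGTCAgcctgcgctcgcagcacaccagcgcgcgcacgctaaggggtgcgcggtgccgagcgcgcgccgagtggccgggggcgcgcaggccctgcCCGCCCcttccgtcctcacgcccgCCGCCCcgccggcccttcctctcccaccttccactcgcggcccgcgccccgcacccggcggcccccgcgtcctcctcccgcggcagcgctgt
The Alox12b window held 3 matches to the GC box, GGGCGG, all on the opposite strand. The Ugcg window held 2 GC boxes and 1 match to the core of the antioxidant response element, TGACNNNGC, again on the opposite strand. The Abca12 window held none of the 9 motifs. Over 32851 promoters, 35.7% held a GC box and 12.4% the antioxidant core, so these matches are common letters in such windows. The other motifs searched were AP-1 (TGANTCA, in 7.81% of promoters), the cyclic AMP response element (TGACGTCA, 1.79%), a heat shock element pair (GAANNTTC, 7.86%), NF-kB (GGGANTTCC, 1.68%), the CCAAT box (CCAAT, 37.4%), the TATA box (TATAAA, 13.6%) and the E-box (CACGTG, 7.15%). No 2 matches overlapped in these 3 windows. GC content was 66.0% in the Alox12b window, 51.3% in that of Abca12 and 81.3% in that of Ugcg, against a median of 52.7% over all promoters. A match is a string of letters and was not tested as a binding site.

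Sptlc1 and Sptlc2 encode the subunits of serine palmitoyltransferase, the enzyme of the first step of ceramide synthesis. Sptlc1, on chromosome 13, had signals of 1046, 990 and 857 in DNFB skin and 931, 907 and 1051 in BAC skin, against 1178, 1262 and 1300 in vehicle skin. All 6 treated arrays lay below all 3 vehicle arrays. The fall was 0.37 on the log2 scale, or 1.29-fold, after each compound (SE 0.11; limma adjusted p = 0.042 for DNFB and 0.041 for BAC). This is the smallest fall called among the 9 genes, and it was lost after DNFB without DNFB replicate 2 or 3, BAC replicate 1 or 2, or any 1 vehicle array, with limma adjusted p between 0.051 and 0.16. After BAC it was lost without BAC replicate 1 or 2 or any 1 vehicle array, with limma adjusted p between 0.075 and 0.14. In all, the DNFB call held in 7 of 19 alternatives and the BAC call in 10 of 19. When its 4 probe sets were averaged, it was called after neither compound, at -0.45 for DNFB and -0.18 for BAC (limma adjusted p = 0.098 and 0.54). In the fit over all tested probe sets, its brightest, 1422690_at, was called after neither compound (limma adjusted p = 0.058 for each). The other 3 probe sets, 1422691_at, 1436726_s_at and 1436727_x_at, ran between 24.0 and 247 and none was called. Names ending in _s_at or _x_at mark probes that may also match other transcripts.

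Sptlc2, on chromosome 12, had signals of 860, 771 and 832 in DNFB skin and 739, 885 and 921 in BAC skin, against 691, 833 and 583 in vehicle skin. The groups overlapped. Its log2 difference was 0.23 after DNFB, with a 95% interval of -0.061 to 0.53, and 0.28 after BAC, with an interval of -0.019 to 0.57 (limma adjusted p = 0.31 and 0.21). When its 3 probe sets were averaged the DNFB difference was -0.061, so no direction can be given. Its other probe sets, 1435937_at and 1454257_at, ran between 7.49 and 182 over all arrays and neither was called in any comparison.

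Ceramide synthases join an acyl chain to the long-chain base, and Cers3 handles the very long chains of epidermal ceramides. Cers4, on chromosome 8, had signals of 1759, 1090 and 1989 in DNFB skin and 2296, 1927 and 1920 in BAC skin, against 2797, 2585 and 2294 in vehicle skin. The DNFB arrays all lay below the vehicle arrays, and the lowest was DNFB replicate 2; BAC replicate 1 overlapped the vehicle range. Cers4 fell by 0.70 on the log2 scale after DNFB (SE 0.17; limma adjusted p = 0.013), and by 0.44 without DNFB replicate 2 (limma adjusted p = 0.040). Without vehicle replicate 1 the call was lost, at -0.63 and a limma adjusted p of 0.058.

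Both other Cers4 probe sets were lower after DNFB as well, in the fit over all 29987 tested probe sets. Probe set 1417781_at had 967, 885 and 1100 in DNFB skin and 1440, 1096 and 1020 in BAC skin, against 1664, 1498 and 1524 in vehicle skin. Probe set 1417782_at had 301, 228 and 346 in DNFB skin and 288, 312 and 247 in BAC skin, against 512, 472 and 464 in vehicle skin. On both, every treated array lay below every vehicle array. The log2 difference after DNFB was -0.66 on 1417781_at and -0.71 on 1417782_at (limma adjusted p = 0.0050 and 0.011), the second lost without vehicle replicate 1 (limma adjusted p = 0.057). After BAC the probe sets of Cers4 gave unequal values: -0.32 on the brightest, 1417780_at, -0.41 on 1417781_at and -0.74 on 1417782_at, with limma adjusted p of 0.28, 0.070 and 0.0095 over probe sets. The BAC call on 1417782_at was lost without vehicle replicate 1 (limma adjusted p = 0.0504), and 1417781_at was called without BAC replicate 1 (limma adjusted p = 0.019). When its 3 probe sets were averaged, Cers4 was called after BAC at -0.49 (limma adjusted p = 0.046).

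Cers3, on chromosome 7, had signals of 554, 370 and 355 in DNFB skin and 343, 614 and 477 in BAC skin, against 500, 791 and 632 in vehicle skin. The groups overlapped, and replicates of each group spread widely. Its log2 difference was -0.57 after DNFB, with a 95% interval of -1.04 to -0.11, and -0.43 after BAC, with an interval of -0.89 to 0.036 (limma adjusted p = 0.097 and 0.22). Neither passed the threshold, except that the DNFB difference was -0.77 without DNFB replicate 1 (limma adjusted p = 0.039).

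Ugcg, on chromosome 4, encodes glucosylceramide synthase, which caps ceramide with glucose before it is packed into lamellar bodies. Its brightest probe set, 1435133_at, had 613, 588 and 578 in DNFB skin and 673, 969 and 712 in BAC skin, against 575, 606 and 467 in vehicle skin. All 3 BAC arrays lay above all DNFB and vehicle arrays, and DNFB and vehicle overlapped. Ugcg rose by 0.49 on the log2 scale after BAC, or 1.41-fold (SE 0.15; limma adjusted p = 0.036 over genes), and its difference after DNFB was 0.12, with a 95% interval of -0.20 to 0.43. The rise was lost when BAC replicate 2, BAC replicate 3, vehicle replicate 1 or vehicle replicate 3 was left out, with limma adjusted p between 0.055 and 0.17, and without BAC replicate 2 it was 0.33. It was also lost when arrays were centred on their median and when only BAC and vehicle arrays were fitted.

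The other Ugcg probe sets separated BAC from DNFB more widely. Probe set 1421268_at had 318, 284 and 264 in DNFB skin and 464, 812 and 594 in BAC skin, against 344, 417 and 362 in vehicle skin. Probe set 1421269_at had 566, 463 and 308 in DNFB skin and 649, 1014 and 676 in BAC skin, against 374, 512 and 462 in vehicle skin. Probe set 1439863_at had 60.7, 22.1 and 46.7 in DNFB skin and 144, 182 and 219 in BAC skin, against 32.7, 70.3 and 38.4 in vehicle skin. On all 4 probe sets the BAC arrays lay above every DNFB and vehicle array.

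The rise after BAC was 0.68 on 1421268_at and 0.76 on 1421269_at (limma adjusted p = 0.025 and 0.034 over probe sets), and the difference was 0.49 on 1435133_at (limma adjusted p = 0.0504). The DNFB minus BAC difference was -1.04 on 1421268_at and -0.80 on 1421269_at (limma adjusted p = 0.0032 and 0.043), and -0.38 on 1435133_at (limma adjusted p = 0.18). Probe set 1439863_at outshone 40% of probe sets in 4 of 9 arrays, the 3 BAC arrays and vehicle replicate 2. It therefore entered the test through the group in which it is high, and its log2 differences of 1.67 for BAC minus vehicle and -1.78 for DNFB minus BAC are given as a description, with no test. The DNFB against BAC call on 1421268_at held in all 18 alternatives run for it. The BAC rise on 1421268_at and on 1421269_at was lost without BAC replicate 2, BAC replicate 3, vehicle replicate 1 or vehicle replicate 3, with limma adjusted p up to 0.13 and 0.16, and when arrays were centred on their median. The DNFB against BAC call on 1421269_at held in 6 of 18 alternatives; it was lost without DNFB replicate 2 or 3, any 1 BAC array or vehicle replicate 3, with limma adjusted p up to 0.19. An average over the 4 probe sets takes in 1439863_at, so its log2 differences of 0.90 for BAC minus vehicle and -1.0 for DNFB minus BAC are descriptions too. The DNFB minus vehicle difference of that average was -0.098.

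**Figure D2:**
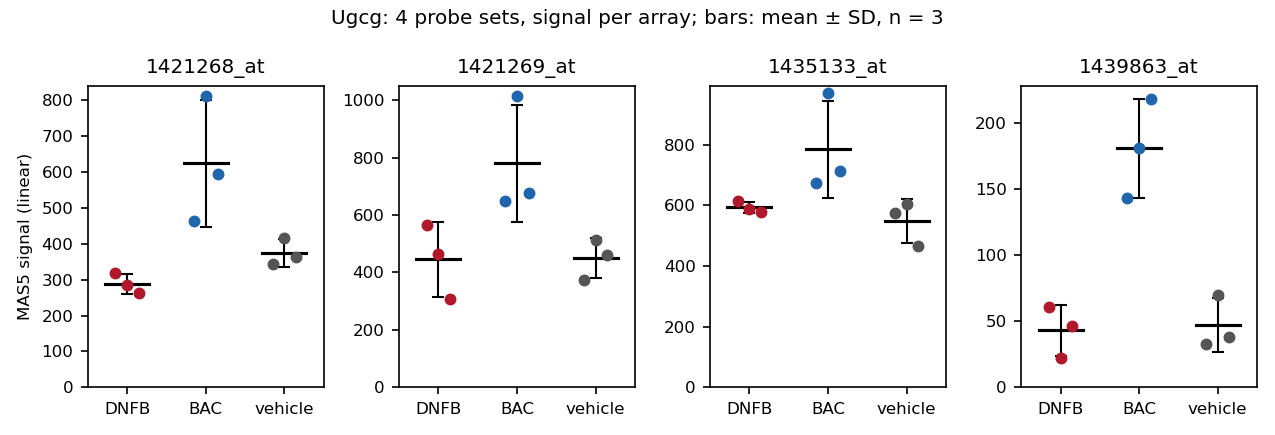
MAS5 signal (linear) of the 4 Ugcg probe sets in each array of DNFB, BAC and vehicle skin; points are arrays, the wide bar is the mean and error bars are SD (n = 3). In each panel all 3 BAC points lie above the DNFB and vehicle points, with the widest separation on 1439863_at, where BAC runs from 144 to 219.

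Counted over probe sets, 7 of the 20 were lower and 0 higher after DNFB, with a background of 5.81% lower and 4.63% higher of all tested probe sets. After BAC 3 were higher, all of Ugcg, and 3 lower, with a background of 4.91% higher and 5.25% lower. In DNFB against BAC 4 were lower, 3 of Ugcg and 1 of Alox12b, and 0 higher, with a background of 3% lower and 1.95% higher. These counts hold 1439863_at, which entered the test through the group in which it is high. Without it 2 of 19 were higher after BAC, and 3 were lower in DNFB against BAC, 2 of them of Ugcg. Probe sets of a gene measure the same RNA and are not replicates. In limma without adjustment, 0 of the 20 were higher after DNFB or in DNFB against BAC at a p under 0.05. With 1439863_at included, the counts of called probe sets without vehicle replicate 1 were 4 after DNFB and 1 after BAC. In DNFB against BAC the count was 2 without DNFB replicate 2 and 2 without BAC replicate 2, and after BAC it was 3 without BAC replicate 2 and 2 without BAC replicate 3 or vehicle replicate 3.

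Abca12, on chromosome 1, encodes the transporter that loads glucosylceramide into lamellar bodies, and its human counterpart is mutated in harlequin ichthyosis. It had signals of 76.2, 89.7 and 154 in DNFB skin and 194, 231 and 153 in BAC skin, against 219, 172 and 197 in vehicle skin. The DNFB arrays lay below the vehicle arrays, while DNFB replicate 3 overlapped the BAC range. Abca12 fell by 0.84 on the log2 scale after DNFB, or 1.78-fold (SE 0.24; limma adjusted p = 0.029). That call was lost when DNFB replicate 1, DNFB replicate 2, vehicle replicate 1 or vehicle replicate 3 was left out, at -0.65, -0.75, -0.76 and -0.83, with limma adjusted p between 0.086 and 0.11. It was also lost under quantile normalization and with no filter on low values.

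Abca12 had nearly the same mean in BAC and vehicle skin, 193 ± 39.3 and 196 ± 23.1 (SD, n = 3 each). The log2 difference was -0.036, with a 95% interval of -0.54 to 0.47 and a limma adjusted p of 0.95, and its sign turned under quantile normalization (0.016). Between DNFB and BAC the difference was -0.80 (limma adjusted p = 0.058), which did not pass, except that without DNFB replicate 3 it was -1.06 (limma adjusted p = 0.017).

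Smpd1, on chromosome 7, encodes acid sphingomyelinase, which turns sphingomyelin into ceramide. Its brightest probe set, 1448621_a_at, had 1899, 1166 and 1559 in DNFB skin and 1600, 1602 and 1573 in BAC skin, against 2336, 2306 and 2333 in vehicle skin. BAC and vehicle arrays each sat within a narrow band, with SDs of 16.1 and 16.4, whereas the DNFB arrays had an SD of 367 and replicate 2 was lowest. All 6 treated arrays lay below the vehicle arrays. Smpd1 fell by 0.62 on the log2 scale after DNFB and by 0.54 after BAC, or 1.53- and 1.46-fold (SE 0.14 each; limma adjusted p = 0.0072 and 0.016). Without DNFB replicate 2 the DNFB fall was 0.43 (limma adjusted p = 0.026).

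The BAC call on Smpd1 was lost narrowly without BAC replicate 3 or vehicle replicate 1, with limma adjusted p of 0.052 and 0.053. Its dimmer probe set, 1447874_x_at, had 147, 170 and 163 in DNFB skin and 222, 261 and 208 in BAC skin, against 205, 174 and 315 in vehicle skin. On that probe set only the DNFB arrays lay below the vehicle arrays, and no comparison was called. When both probe sets were averaged the BAC difference was -0.26 (limma adjusted p = 0.23), and the DNFB call held.

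Alox12b and Aloxe3 lie next to each other on chromosome 11 and encode lipoxygenases that act in sequence on the linoleate of acylceramides. Alox12b had signals of 611, 565 and 797 in DNFB skin and 1064, 1440 and 898 in BAC skin, against 1507, 1666 and 1734 in vehicle skin. The 3 groups did not overlap, with DNFB lowest and BAC between DNFB and vehicle. The mean was 658 ± 123 in DNFB skin, 1134 ± 277 in BAC skin and 1636 ± 116 in vehicle skin (SD, n = 3 each). Alox12b fell by 1.31 on the log2 scale after DNFB, or 2.47-fold (SE 0.16; limma adjusted p = 6.1e-05), and this held in all 19 alternatives, between -1.45 and -1.21.

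After BAC, Alox12b fell by 0.55 on the log2 scale, or 1.46-fold (limma adjusted p = 0.035). The BAC call was lost without BAC replicate 1, BAC replicate 3 or any 1 vehicle array, with differences between -0.60 and -0.39 and limma adjusted p between 0.058 and 0.16, and it held in 12 of 19 alternatives. The DNFB minus BAC difference was -0.76 on the log2 scale, or 1.69-fold lower with DNFB (limma adjusted p = 0.011). Without DNFB replicate 2 that difference was -0.66 and without BAC replicate 2 it was -0.58, with limma adjusted p of 0.053 and 0.056.

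Aloxe3 had signals of 669, 458 and 564 in DNFB skin and 572, 576 and 626 in BAC skin, against 708, 910 and 857 in vehicle skin. All 6 treated arrays lay below the vehicle arrays, and DNFB and BAC overlapped. Aloxe3 fell by 0.55 on the log2 scale after DNFB and by 0.46 after BAC, or 1.46- and 1.38-fold (SE 0.15 each; limma adjusted p = 0.020 and 0.045). The DNFB minus BAC difference was -0.083, with a 95% interval of -0.39 to 0.23. After DNFB the call was lost without DNFB replicate 2 (-0.41), vehicle replicate 2 (-0.47) or vehicle replicate 3 (-0.51), with limma adjusted p between 0.071 and 0.092. After BAC it held in 8 of 19 alternatives, and was lost without DNFB replicate 3, any 1 BAC array, vehicle replicate 2 or vehicle replicate 3, with limma adjusted p between 0.058 and 0.14. In the fit over all tested probe sets, the BAC difference of Aloxe3 was not called (limma adjusted p = 0.062). A test of whether the lipoxygenases differ from each other in their response was not run.

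**Figure D3:**
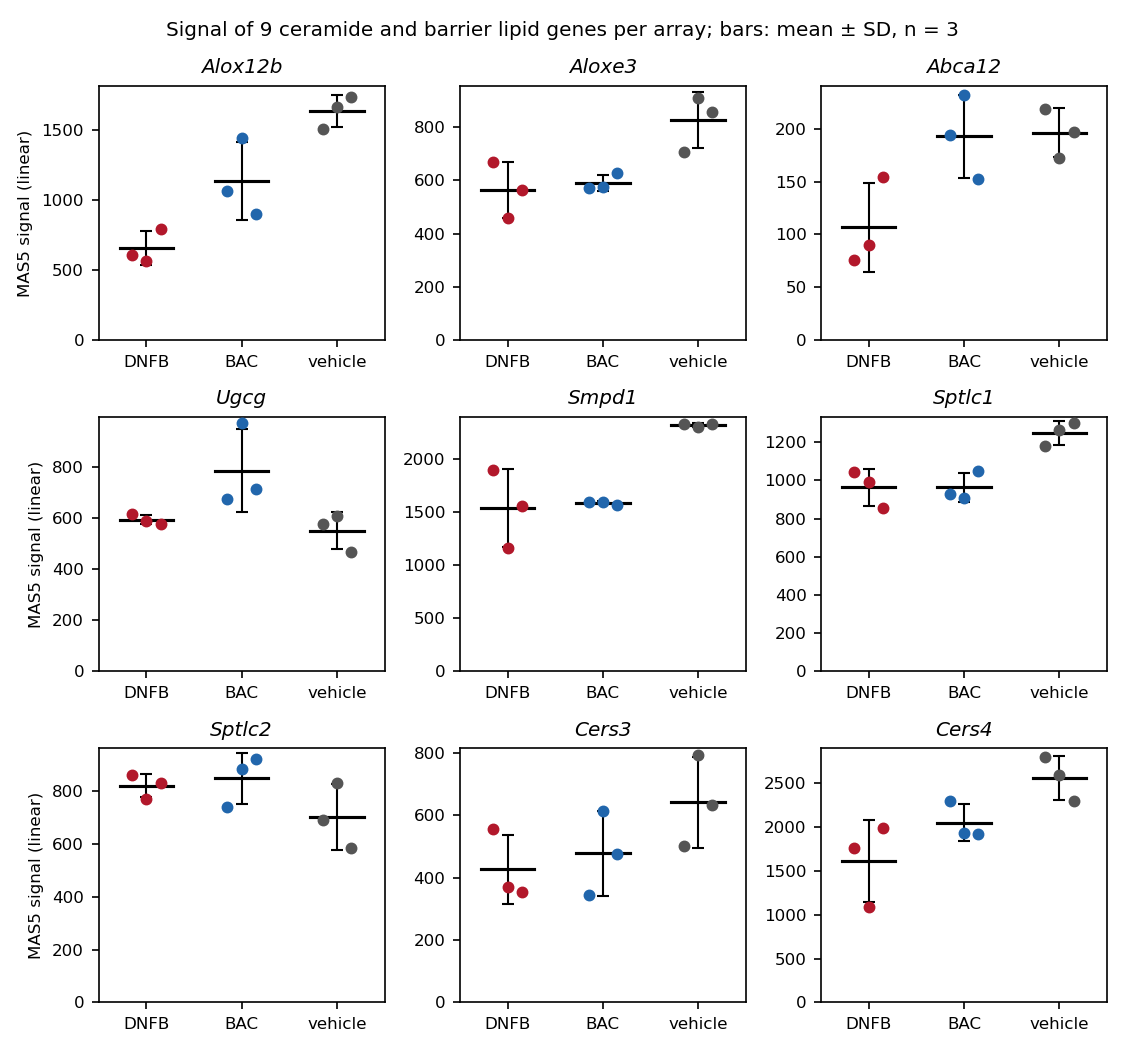
MAS5 signal (linear) of the brightest probe set of each of the 9 genes in every array of DNFB, BAC and vehicle skin; points are arrays, the wide bar is the mean and error bars are SD (n = 3). Alox12b is lowest in DNFB, then BAC, then vehicle, without overlap, Smpd1, Sptlc1 and Aloxe3 are below vehicle in all treated arrays, and Ugcg is highest in the 3 BAC arrays.

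The 5 tested genes whose log2 values followed Alox12b most closely over the 9 arrays were Lce1d, Aif1l, AI661453, Map2 and Lce1c, with Pearson r of 0.98, 0.98, 0.98, 0.97 and 0.97. They were picked for that likeness, and the arrays share their treatment groups, so r is a description. Lce1c and Lce1d encode late cornified envelope proteins, which are made in the last living cells of the epidermis. Lce1d averaged 1641 ± 265 in DNFB skin and 2917 ± 354 in BAC skin, against 4342 ± 281 in vehicle skin (SD, n = 3 each). Lce1c averaged 2515 ± 543 in DNFB skin and 4013 ± 713 in BAC skin, against 6404 ± 230 in vehicle skin (SD, n = 3 each). The Lce1d probe set has the ending _x_at, and the genes of that family are near copies, so it may read more than 1 of them.

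Of 48 other listed genes of ceramide synthesis, turnover and transport, 44 had a probe set of their own. After DNFB 20 of the 44 were lower, 0 higher and 24 not called, with a median log2 difference of -0.44, beside 7.08% lower and 6.76% higher among all tested genes. After BAC 13 were lower, 0 higher and 31 not called, with a median of -0.36, beside 7.64% lower and 6.59% higher. Without BAC replicate 3 the count of lower genes was 7, with 681 of 13920 tested genes called lower, against 1079 of 14122 with all arrays. In limma without adjustment, 25 were lower and 2 higher after DNFB at a p under 0.05, and 22 were lower and 1 higher after BAC. The shares above hold for adjusted p only, so these unadjusted counts have no background beside them. Between DNFB and BAC 3 of the 44 were called lower with DNFB and 1 higher, beside 3.66% lower and 3.14% higher among all tested genes. Their median was -0.11, against 0.029 over all tested genes. These genes too were listed with earlier results of these data known, so their counts beside the shares are a description.

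Among genes that supply acyl chains and form acylceramide, 7 of 8 were lower after DNFB and 4 of 8 after BAC. All 3 genes of acylceramide oxidation and envelope attachment were lower after DNFB, and 1, Sdr9c7, was lower after BAC. For long-chain base and ceramide formation the counts were 3 of 10 lower after DNFB and 3 of 10 after BAC, for glucosylceramide and sphingomyelin turnover 3 and 2 of 8, and for ceramide breakdown and sphingosine phosphate 4 and 3 of 11. Of the 4 genes of lamellar body trafficking none was called by limma after either compound, and 1 was lower after DNFB at an unadjusted p under 0.05. Differences between these roles were not tested.

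Elovl4, the elongase that makes the ultra-long acyl chains of acylceramides, had 2997, 2506 and 2337 in DNFB skin and 6663, 6557 and 5488 in BAC skin, against 7106, 6693 and 6923 in vehicle skin. DNFB arrays were far below the rest, and BAC arrays were just below vehicle. Elovl4 had a log2 difference of -1.40 for DNFB minus vehicle and -1.25 for DNFB minus BAC (limma adjusted p = 8.5e-07 and 5.9e-06), while its BAC difference from vehicle was -0.15 (limma adjusted p = 0.41). Both of its DNFB calls held in all 19 alternatives.

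Sgpp2, a sphingosine phosphate phosphatase, had 217, 176 and 203 in DNFB skin and 480, 323 and 229 in BAC skin, against 613, 689 and 544 in vehicle skin. The groups did not overlap. It fell by 1.55 on the log2 scale after DNFB and by 0.86 after BAC (limma adjusted p = 0.00011 and 0.011); without BAC replicate 3 the BAC fall was 0.62 (limma adjusted p = 0.053). Sdr9c7, a dehydrogenase that acts on acylceramides after the lipoxygenases, had 457, 404 and 346 in DNFB skin and 509, 505 and 539 in BAC skin, against 831, 824 and 912 in vehicle skin. It fell by 1.07 after DNFB and fell by 0.71 after BAC on the log2 scale (limma adjusted p = 4.3e-05 and 0.0015), also with no overlap between the groups.

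Tgm1, the transglutaminase that cross-links the envelope, had 346, 218 and 311 in DNFB skin and 435, 682 and 444 in BAC skin, against 542, 761 and 581 in vehicle skin. DNFB arrays lay below those of both other groups, which overlapped each other. Tgm1 fell by 1.07 on the log2 scale after DNFB, and its DNFB minus BAC difference was -0.79 (limma adjusted p = 0.0019 and 0.026). The difference from BAC was lost without DNFB replicate 2 (-0.61), DNFB replicate 3 (-0.85) or BAC replicate 2 (-0.59). Fa2h, which hydroxylates the acyl chain, averaged 3315 ± 246 in DNFB skin and 4782 ± 509 in BAC skin, against 5525 ± 388 in vehicle skin (SD, n = 3 each), with a DNFB minus BAC difference of -0.52 on the log2 scale (limma adjusted p = 0.0075). That difference was not called when arrays were centred on their median (limma adjusted p = 0.066).

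Nipal4, whose human counterpart is mutated in ichthyosis, had 264, 213 and 232 in DNFB skin and 196, 302 and 266 in BAC skin, against 478, 570 and 429 in vehicle skin. DNFB and BAC overlapped and both lay below vehicle. It fell by 1.01 on the log2 scale after DNFB (limma adjusted p = 0.0010) and fell by 0.92 after BAC (limma adjusted p = 0.0022), on a probe set ending in _s_at. Asah2, the neutral ceramidase, had 286, 217 and 237 in DNFB skin and 157, 182 and 108 in BAC skin, against 297, 309 and 366 in vehicle skin. BAC arrays were lowest, and Asah2 fell by 1.06 on the log2 scale after BAC (limma adjusted p = 0.0015). It was the 1 listed gene called higher in DNFB than in BAC, by 0.69 (limma adjusted p = 0.043). That call held in 6 of 19 alternatives and was lost without any 1 DNFB or vehicle array, BAC replicate 1 or BAC replicate 3, with limma adjusted p between 0.052 and 0.14. When its 3 probe sets were averaged, Asah2 was called neither after BAC nor between DNFB and BAC, at -0.43 and 0.18.

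**Figure D4:**
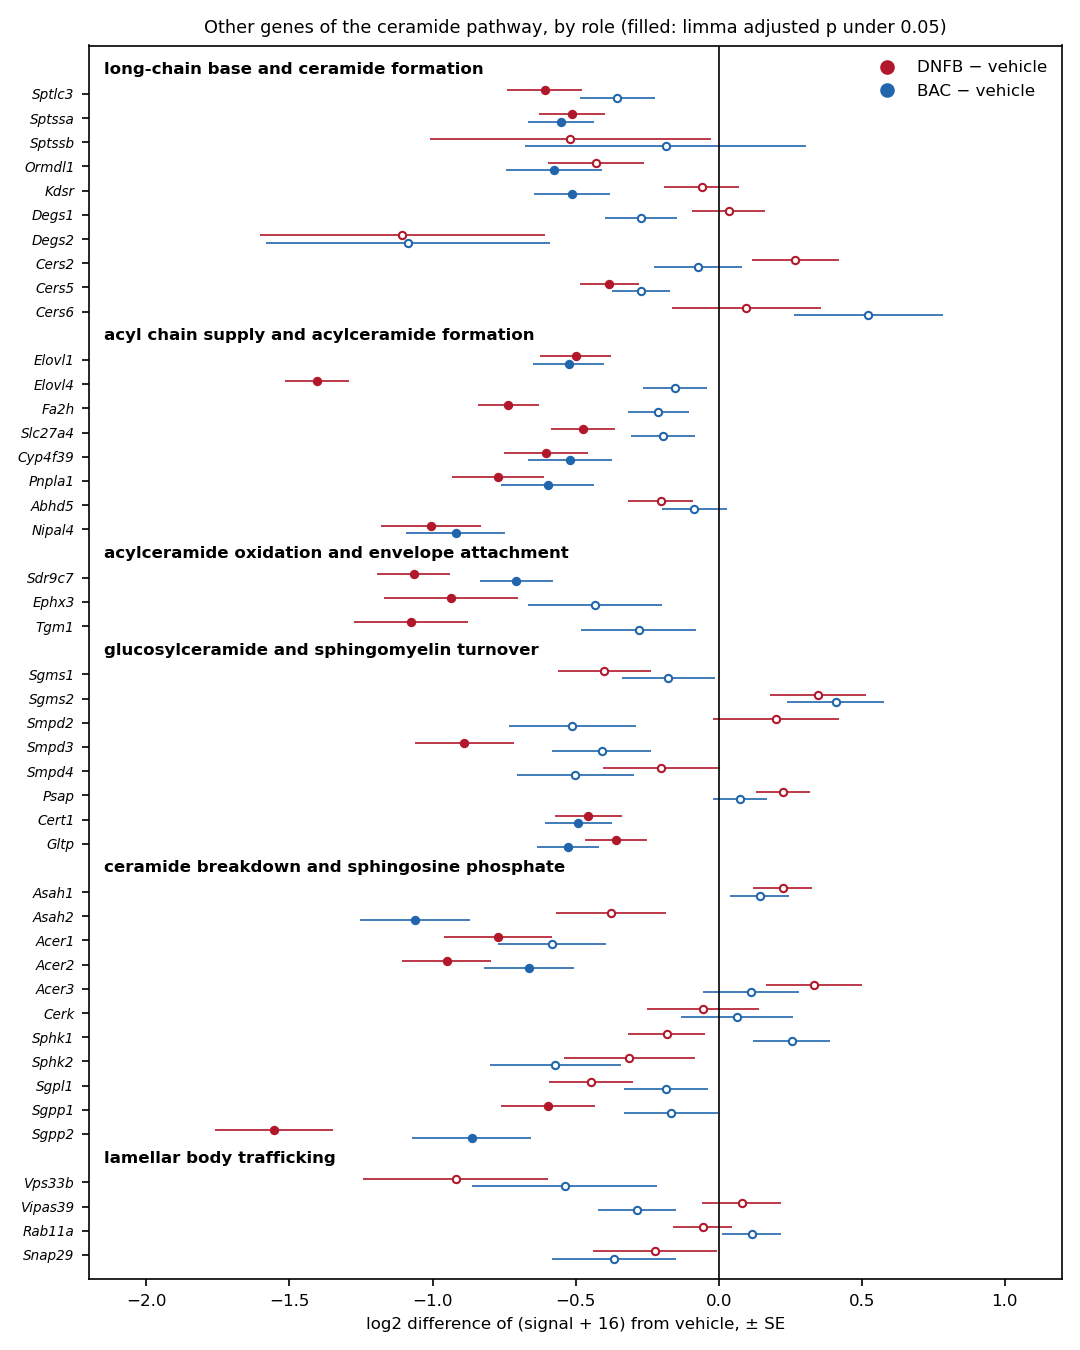
Log2 differences of (signal + 16) from vehicle for the 44 other ceramide pathway genes, grouped by role, with limma SE bars, for DNFB (red) and BAC (blue); filled points have an adjusted p under 0.05. All 20 filled red and all 13 filled blue points lie left of 0, down to -1.55 for Sgpp2 after DNFB.

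Some markers of the cell types in ear skin were also called. Beside them, 7.08% of all tested genes were lower and 6.76% higher after DNFB, and 7.64% lower and 6.59% higher after BAC. Of 6 basal keratinocyte markers 4 were lower after DNFB and 2 after BAC, and their summed signal was 21923.5 to 25459.3 in DNFB skin and 26223.3 to 30563.4 in BAC skin, against 31925.5 to 32506.3 in vehicle skin. Of 8 suprabasal keratinocyte markers 4 were lower after DNFB and 5 after BAC. Their summed signal overlapped, at 51130 to 58984.4, 48879.8 to 56115.5 and 52748.1 to 62482.2 in DNFB, BAC and vehicle skin. Most of that sum was Krt10 and Lor, neither called, with means of 27482 and 18165 in DNFB skin and 21918 and 19909 in vehicle skin. Krt1, Flg, Ivl and Dsg1a lay below vehicle in every treated array, while Krt10, Lor, Tgm3 and Casp14 overlapped it. The lipoxygenases and Abca12 act in keratinocytes, and the part of keratinocyte RNA in the falls was not tested.

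The measured neutrophil markers were S100a8, S100a9, Csf3r and Cxcr2, while Ly6g and Retnlg had no probe set. Of these 4, 3 were higher after DNFB and 4 after BAC. Their summed signals were 9802.94 to 19203.4 in DNFB skin and 17988.8 to 26540.9 in BAC skin, against 956.371 to 5373.43 in vehicle skin. Whether that signal came from neutrophils was not tested. Macrophage markers were higher for 4 of 6 after DNFB and 3 of 6 after BAC, with sums of 13106.5 to 14409.1, 15127.4 to 16133.8 and 10036.8 to 11735.1 in DNFB, BAC and vehicle skin. Of 7 skeletal muscle markers 4 were higher after DNFB and none was called by limma after BAC, where 3 were higher at an unadjusted p under 0.05; the sums were 36308 to 43017.6 in DNFB skin and 28647.8 to 43862 in BAC skin, against 25510.1 to 31519 in vehicle skin. Smaller counts were called higher after DNFB among fibroblast (1 of 6), endothelial (2 of 6) and adipocyte markers (1 of 5), and 1 of 6 sebaceous gland markers went each way. In lists this short, 1 call cannot be told apart from the shares of all tested genes given above. After BAC 1 of 6 endothelial markers was higher, 1 of 6 sebaceous markers went each way, and limma called no fibroblast or adipocyte marker, with 1 of 6 and 0 of 5 higher at an unadjusted p under 0.05. No measured marker of any list was among the dimmest 40% of probe sets in all 9 arrays. Every list met this, so it does not single out skin. Markers of muscle, fat and stroma were measured along with those of keratinocytes. Marker signal does not separate the number of cells from the RNA per cell, so a change in cell mixture was not shown. How much cell mixture contributes to the differences of the 9 genes was not tested.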

How the data were processed

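Per the labels' protocols, total RNA of ear skin was labelled for Affymetrix arrays. The authors deposited linear MAS5 intensities, 1 per probe set. Per the submitters' processing notes, MAS5 and Affymetrix Expression Console were used (versions: not given in the sources used here). Every one of the 9 arrays had a mean of 250.001 once the outer 2% at each end were trimmed, so all had been scaled to 1 target; medians ran from 71.2 to 86.3. Control probe sets (64) were left out. The annotation gave 34945 probe sets 1 symbol, 932 several and 9160 none; probe sets with several were used for no gene, and 34741 of the first matched RefSeq GRCm38.p6.

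Signals were analysed as log2(signal + 16), on which a fold change understates that of dim genes. A gene was represented by its brightest probe set, and was tested when brighter than 40% of probe sets in at least 3 of 9 arrays. All 9 arrays entered 1 limma model (limma 3.58.1, R 4.3.3; eBayes with an intensity trend), two-sided, with Benjamini-Hochberg adjustment over 14122 genes or 29987 probe sets, a threshold of 0.05 and 95% intervals. The fit was checked on simulated data. With 3 arrays a group, exact permutation could reach no p under 0.1 and was not run. The number of arrays limits the precision. Members and lists were chosen with earlier results of these data known. All members are named; of other pathway genes, up to 4 with the largest rise and fall among those called per comparison; and the 5 genes most like the member with the smallest moderated F-test p. Alternatives changed the pseudocount, filter, scaling, variance model, probe set rule, groups fitted and replicate block, or left out 1 array. Of the listed pathway genes, Ormdl2, Ormdl3 and Cers1 were on shared probe sets, and 1 other is not reported here. Counts at an unadjusted p are given without the share of all tested genes at that threshold. Detection calls and batches were not used here. Figures were drawn with matplotlib 3.10.9.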

Additional observations from a re-analysis of the deposited data

How the results depend on the processing

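Among member gene changes refitted under alternatives, 427 kept direction and side of the threshold, 67 lost the call, 4 gained it and 15 turned sign. The 427 include changes not called in the main fit, which had no call to lose, so they do not measure how firm the calls were. The cause was not tested. Without the intensity trend the counts of called genes after DNFB were 1 member, 1 member probe set and 10 other pathway genes (main 6, 7 and 20), after BAC 0, 2 and 7 (main 5, 6 and 13), and in DNFB against BAC 0, 2 and 1 (main 1, 4 and 4). Over all tested genes the calls without the trend were 1202, 1387 and 402 (main 1955, 2009 and 961). The probe set counts after BAC and in DNFB against BAC, with and without the trend, take in the Ugcg probe set 1439863_at. That probe set entered the test through the group in which it is high. After BAC, 3 members were called with quantile normalization and 2 with the mean of probe sets. That mean called 2 in DNFB against BAC and takes in 1439863_at too.

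With the replicate number as a block, 5 members were called after DNFB, 3 after BAC, where Aloxe3 and Sptlc1 were lost, and 1 in DNFB against BAC. Same-numbered arrays correlated between -0.12 and 0.15 in their deviations from the group means, 1 of 9 pairs above 0.1. Arrays of unlike number correlated between -0.16 and 0.12, 2 of 18 pairs above 0.1. These values cannot show whether the numbers pair the samples or whether arrays came from the same mice.

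With 1 array left out, counts after DNFB ran from 3 to 6 members and 4 to 7 probe sets. After BAC they ran from 1 to 5 and 1 to 7, with 7 to 14 other pathway genes. In DNFB against BAC they ran from 0 to 2 and 2 to 4. The probe set counts after BAC and in DNFB against BAC again take in 1439863_at. It was the 1 probe set called after BAC without vehicle replicate 1. Signs turned in these small differences. After DNFB, with the mean of probe sets, Ugcg was at -0.098 and Sptlc2 at -0.061, and Ugcg 1421269_at was at 0.026 with quantile normalization. Abca12 after BAC was at 0.016 with quantile normalization. In DNFB against BAC with centred arrays, Smpd1 was at 3.8e-05, Sptlc1 at 0.073 and Sptlc2 at 0.032. With 1 array left out, DNFB differences ran from -0.23 to 0.19 on Ugcg 1421269_at and -0.32 to 0.18 on 1439863_at, and Abca12 after BAC from -0.17 to 0.11. In DNFB against BAC they ran from -0.21 to 0.054 for Aloxe3, -0.24 to 0.11 for Smpd1, -0.060 to 0.081 for Sptlc1, -0.14 to 0.020 for Sptlc2, -0.36 to 0.045 for Cers3, -0.25 to 0.041 for Nipal4 and -0.098 to 0.19 for Cers4 1417782_at.

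Centring arrays on their median moved the median gene to -0.12 after BAC and 0.10 in DNFB against BAC, and called 606 genes higher and 1178 lower after BAC, against 930 and 1079. In DNFB against BAC, dropping the intensity trend called 137 higher and 265 lower, against 444 and 517. With 3 arrays a group, a difference that missed the threshold was not shown to be absent.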
